A study of Homo sapiens with 12 samples.

Results

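Histone-modifying enzymes were taken as the gene symbols of the count table that matched the KDM, KMT, SETD, HDAC, KAT, SIRT and PRMT naming patterns, together with EZH1, EZH2, DOT1L, EHMT1, EHMT2, EP300 and CREBBP. The pattern and the named genes found 73 of 26334 symbols, 37 writers (KMT, SETD, KAT, PRMT, EZH, DOT1L, EHMT, EP300 and CREBBP) and 36 erasers (KDM, HDAC and SIRT). Of these, 69 averaged 10 or more counts per library and were tested, 36 writers and 33 erasers. KDM4E, KDM5D, PRMT8 and SIRT4 were below that average and were not tested. The rule rests on names alone and takes in no measured value, although it was set with earlier results of these data known.

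The cells were shA673-1c, an Ewing sarcoma line derived from A673, an established tumour line whose growth depends on the fusion protein EWSR1-FLI1. Every library, the 0 h controls included, came from cells grown in blasticidin and zeocin, and the groups differed only in time, 0, 1, 2 or 4 h, with 5 µM actinomycin D, in 3 biological replicates each (12 libraries of poly(A)-selected RNA). No untreated time course and no second line were part of these samples, so time in culture and time with the drug cannot be told apart. Of 8 markers of Ewing sarcoma cells, 7 were counted at 0 h, from 7.08 CPM for NKX2-2 to 1676 CPM for CCND1, and CD99 was listed at 0 in all 12 libraries, whereas no endothelial, blood or epithelial marker reached more than 9 counts in any library.

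Histone modification works through opposed enzyme classes. Writers place acetyl groups on lysine or methyl groups on lysine and arginine of histone tails, and erasers remove them, so the mark at a gene depends on which of them is recruited. Acetylation by the KAT proteins, EP300 and CREBBP accompanies active promoters and enhancers, trimethylation of H3K4 marks promoters, and methylation of H3K27 and H3K9 accompanies silencing. In Ewing sarcoma cells KDM1A, EZH2 and the class I HDACs have been studied as drug targets. Actinomycin D blocks transcription by binding DNA, so that the later course of an mRNA follows its decay, and such values bear on the lifetime of these mRNAs and not on the amount or activity of the enzymes.

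AU-rich elements, built from the pentamer ATTTA in the 3′ UTR, are a known feature of unstable mRNAs, and the pentamer was counted in the 3′ UTR of each member's Ensembl canonical transcript (GENCODE version 44, GRCh38). The sequences below are the 30-base windows holding the most copies of it, in the sense strand, with the pentamer in capitals. KAT6A and KAT6B, which also fell steeply and held 3 and 7 copies, are not shown. Windows are given for 6 other members that fell steeply, for HDAC10 and HDAC6 among the highest slopes, and for HDAC2. HDAC2 holds 29 copies in all, and its slope lay near 0.
CREBBP: ttaaggtttttATTTATTTAtatatatttt
EP300: attaatagttattATTTActggtgcagatg
KMT2E: aaaattctATTTAtggtATTTAgtaaagaa
KDM4D: tgaaactggttacATTTAcatcccaaaact
KDM5B: acctctctctgggATTTAccagcttaagag
SIRT1: ttcttataATTTAtctttATTTAaaagctt
HDAC10: ccaaggtgggagcATTTAcaccgcagaaat
HDAC6: cccaagagtgcttATTTAagtgttaatact
HDAC2: ttttctcatATTTAaacATTTAcccgtaga
CREBBP held 4 copies in a 3′ UTR of 2664 bases, KDM5B 10 in 4541 bases, SIRT1 9 in 1797 bases and HDAC10 1 in 324 bases. KAT2A, SIRT2 and PRMT7, which also had high slopes, held none, and neither did KAT5, which fell. The pentamer is common: 74.9% of the tested coding genes with a 3′ UTR held at least 1 copy.

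Counts were scaled with edgeR's TMM factors, expressed as CPM (counts divided by the scaled library size), and fitted for each gene with 1 slope over time in log2 change per hour. The table holds no spike-in RNA, so a slope is relative to the scaling: a member that rose became a larger share of the mRNA counted. Library totals ranged from 9147018 to 11194705 counts. JUN and IER2, short-lived immediate early transcripts, had slopes of -0.89 and -0.84, and GAPDH and ACTB, commonly taken as stable, had slopes of 0.15 and 0.12. Scaling to GAPDH and ACTB moved the median slope of all tested genes by -0.14, and each member moved with it.

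Among the 69 tested members, 32 fell and 15 rose at an adjusted p below 0.05 (edgeR), and 22 did not pass the threshold. The same call was made for 32.1% of all 12032 tested genes in the falling and 30.7% in the rising direction, against 46.4% and 21.7% of the members. The median slope of the members was -0.058, compared with 0.0093 for all tested genes. In a fit blocked on replicate number, 34 members fell and 17 rose (backgrounds of 34.8% and 36.2%), EZH1 and PRMT3 rising and KAT8 and SETD6 falling in addition, and no call was lost. Under the scaling to GAPDH and ACTB, 54 fell and 0 rose (backgrounds of 64.2% and 0.931%). There HDAC10, KAT2A, SIRT2 and HDAC6 had positive slopes of 0.081, 0.051, 0.022 and 0.0064 that did not pass, the other 11 rising members turned below 0, and EHMT2, KDM3B and SETD7 were among those that fell. Under library totals 37 fell and 10 rose (backgrounds of 39.1% and 18.7%). There EHMT2, KAT2B, KDM1B, KDM3B and SETD7 no longer passed, and KAT8, KDM1A, KDM4C, SETD6 and SIRT7 fell in addition.

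The separate contrast of 4 h against 0 h called 32 members lower and 16 higher (edgeR, backgrounds of 31.6% and 28.7%). In 33 members all 4 h libraries lay below all 0 h libraries, and in 17 they lay above (backgrounds of 33.0% and 30.4%). All 32 falling and all 15 rising members had the same sign of slope in each replicate fitted alone. The calls were made from these same replicates, so this is a description and no separate support. For the members that fell, half-lives (-1 divided by the slope under TMM scaling) had a median of 4.16 h, and 16 of the 32 were below 4 h. These hours depend on the scaling, a spread that the ranges within 1 SE given below do not cover. Each of these slopes was lower under library totals and when scaled to GAPDH and ACTB, which gives shorter half-lives.

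**Figure D1:**
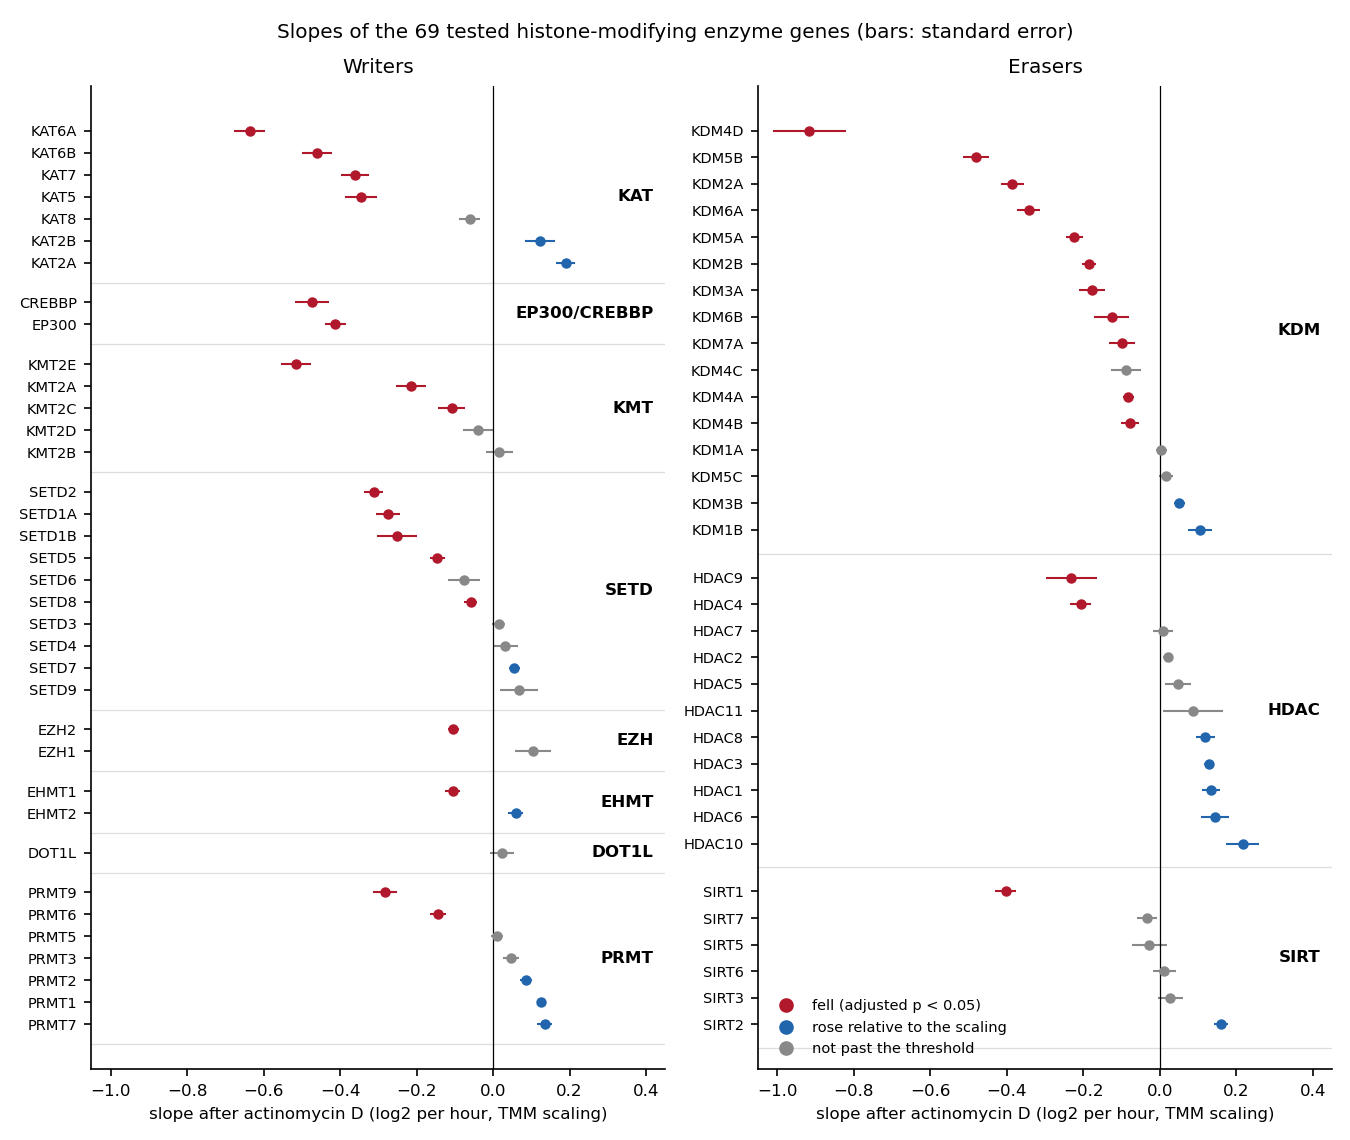
Slope in log2 change per hour (horizontal axis, TMM scaling) with its standard error for each of the 69 tested members, writers on the left and erasers on the right, in families. Red members fell (32), blue members rose relative to the scaling (15) and grey members did not pass the threshold (22); KDM4D lies farthest left at -0.92 and HDAC10 farthest right at 0.22.

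Most acetyltransferases fell. Of 9 tested acetylation writers, 6 fell (KAT6A, CREBBP, KAT6B, EP300, KAT7 and KAT5), KAT2A and KAT2B rose and KAT8 did not pass the threshold, with a median slope of -0.36. KAT6A, the catalytic subunit of the MOZ complex, was measured at 119, 105 and 111 CPM at 0 h, 95.1, 93.9 and 84.9 at 1 h, 53.8, 57.5 and 50.9 at 2 h and 23.1, 22.0 and 14.3 at 4 h. Each later time point lay wholly below the one before it, and KAT6A had a slope of -0.64 ± 0.039 (SE, adjusted p = 2.76e-09, edgeR) and a half-life of 1.57 h (1.48 to 1.67 h within 1 SE of the slope).

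CREBBP, a coactivator that acetylates H3K27 at enhancers, gave 167, 134 and 140.2 CPM at 0 h, 144, 152 and 118 at 1 h, 108, 92.4 and 81.5 at 2 h and 46.7, 45.3 and 33.0 at 4 h. The 1 h libraries overlapped the 0 h libraries, and the 2 h and 4 h libraries lay below both. CREBBP, on chromosome 16 of GRCh38 from 3725054 to 3880713 on the minus strand, had a slope of -0.47 ± 0.044 (SE, adjusted p = 1.36e-07, edgeR) and a half-life of 2.12 h (1.94 to 2.34 h within 1 SE of the slope).

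EP300, its close paralog, gave 158, 123 and 129 CPM at 0 h, 121, 123 and 98.2 at 1 h, 84.0, 77.2 and 69.8 at 2 h and 48.9, 43.6 and 43.0 at 4 h. Replicate 1 was the highest at 0 h, and the 4 h libraries again lay below all others. Its slope was -0.41 (SE 0.028, adjusted p = 6.02e-09, edgeR), which gives a half-life of 2.42 h (2.27 to 2.60 h within 1 SE of the slope), and the gene lies on chromosome 22 of GRCh38 from 41092592 to 41180077 on the plus strand.

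KAT6B, the MORF counterpart of KAT6A, had a slope of -0.46 ± 0.040 (SE, adjusted p = 6.00e-08, edgeR), KAT7, the HBO1 enzyme that acetylates H3K14, had a slope of -0.36 ± 0.036 (SE, adjusted p = 3.19e-07, edgeR), and KAT5, the TIP60 enzyme of the NuA4 complex, had a slope of -0.34 ± 0.042 (SE, adjusted p = 2.40e-06, edgeR). In all 3 the 4 h libraries lay below the 0 h libraries. KAT5 shares 38.5% of its canonical transcript with RNASEH2C on the opposite strand, and reads of the partners may have been mixed if strand was ignored in counting, which the sources leave unstated. KAT8, the MOF enzyme for H4K16, had a slope of -0.060 ± 0.027 (SE, adjusted p = 0.0651, edgeR), and fell with the replicate block (adjusted p = 0.0369, edgeR) and under library totals (adjusted p = 0.00886, edgeR).

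KAT2A, the GCN5 acetyltransferase of the SAGA and ATAC complexes, went the other way. It gave 33.9, 37.2 and 40.0 CPM at 0 h, 42.8, 50.1 and 52.9 at 1 h, 47.6, 55.5 and 49.8 at 2 h and 65.3, 64.1 and 67.4 at 4 h, and all libraries of 1, 2 and 4 h lay above those of 0 h. KAT2A had a slope of 0.19 ± 0.024 (SE, adjusted p = 3.56e-06, edgeR), and 13.0% of its transcript also belongs to a readthrough gene model on the same strand. KAT2B, the PCAF enzyme, had a slope of 0.12 ± 0.039 (SE, adjusted p = 0.0112, edgeR), a call that was lost without replicate 1 and under library totals.

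Among the acetylation erasers the picture differed: 3 of 17 tested HDAC and SIRT genes fell, 6 rose and 8 did not pass, with a median slope of 0.028, and 10 fell and 0 rose under the scaling to GAPDH and ACTB. The class I deacetylases HDAC1, HDAC3 and HDAC8, which work in the nucleus in the Sin3, NuRD, CoREST and NCoR complexes or alone, rose under TMM scaling, with slopes of -0.0050, -0.0095 and -0.019 when scaled to GAPDH and ACTB, and HDAC2 did not pass. Of the class IIa enzymes, which shuttle between nucleus and cytoplasm, HDAC4 and HDAC9 fell and HDAC5 and HDAC7 did not pass. Both class IIb enzymes, HDAC6 and HDAC10, rose, and the class IV enzyme HDAC11 did not pass.

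HDAC1 gave 135, 129 and 158 CPM at 0 h, 147, 135 and 171 at 1 h, 167, 158 and 194 at 2 h and 199, 185 and 221 at 4 h. All 4 h libraries exceeded all 0 h libraries, and replicate 3 was the highest at every time. HDAC1, on chromosome 1 of GRCh38 from 32292083 to 32333635 on the plus strand, had a slope of 0.13 ± 0.024 (SE, adjusted p = 0.000128, edgeR). HDAC2, with which it shares its complexes, gave 325, 336 and 315 CPM at 0 h, 315, 316 and 309 at 1 h, 322, 337 and 318 at 2 h and 348, 343 and 328 at 4 h. Its 0 h and 4 h libraries overlapped, while all 1 h libraries lay below those of 2 h and of 4 h. HDAC2 had a slope of 0.021 ± 0.012 (SE, adjusted p = 0.151, edgeR).

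HDAC10, known as a polyamine deacetylase, gave 13.2, 9.06 and 12.1 CPM at 0 h, 15.9, 14.2 and 18.0 at 1 h, 15.5, 16.1 and 12.6 at 2 h and 18.1, 22.4 and 26.8 at 4 h. The rise was not steady, since the 2 h libraries overlapped those of 0 h and of 1 h, and replicate 1 rose least. HDAC10, on chromosome 22 of GRCh38 from 50245183 to 50251405 on the minus strand, had a slope of 0.22 ± 0.043 (SE, adjusted p = 0.000354, edgeR), and 35.5% of its transcript overlaps a non-coding gene on the opposite strand. HDAC6, the cytoplasmic tubulin deacetylase, gave 39.8, 32.8 and 47.1 CPM at 0 h, 45.2, 36.8 and 55.3 at 1 h, 47.9, 44 and 58.9 at 2 h and 59.1, 53.2 and 68.6 at 4 h, with the same order of replicates at each time, and had a slope of 0.14 ± 0.036 (SE, adjusted p = 0.00219, edgeR).

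HDAC3 had a slope of 0.13 ± 0.014 (SE, adjusted p = 8.21e-07, edgeR) and HDAC8 had a slope of 0.12 ± 0.025 (SE, adjusted p = 0.000621, edgeR), although 68.0% of the HDAC8 transcript lies also in a longer gene model on the same strand. HDAC4 had a slope of -0.21 ± 0.026 (SE, adjusted p = 3.88e-06, edgeR). HDAC9 had a slope of -0.23 ± 0.068 (SE, adjusted p = 0.00683, edgeR), and its 0 h and 4 h libraries overlapped, with replicate 3 low throughout, at 9.14 CPM at 0 h against 18.8 and 14.6 in the others. The HDAC9 call was lost without replicate 2. HDAC5, HDAC7 and HDAC11 had slopes of 0.047, 0.0089 and 0.086.

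The sirtuins, which use NAD as cosubstrate, were led in opposite directions by their best known members. SIRT1, a nuclear deacetylase, gave 63.2, 66.1 and 60.0 CPM at 0 h, 56.3, 58.0 and 54.9 at 1 h, 44.8, 44.2 and 41.7 at 2 h and 21.2, 21.0 and 20.4 at 4 h. Replicates lay close together and each time lay below the one before, with a slope of -0.40 ± 0.028 (SE, adjusted p = 7.60e-09, edgeR) and a half-life of 2.48 h (2.32 to 2.66 h within 1 SE of the slope). SIRT2, mainly a cytoplasmic deacetylase, gave 33.8, 33.6 and 32.5 CPM at 0 h, 38.3, 36.8 and 36.4 at 1 h, 47.8, 40.5 and 38.7 at 2 h and 53.5, 50.1 and 51.9 at 4 h. It was higher at each time than at 0 h in all replicates and had a slope of 0.16 ± 0.019 (SE, adjusted p = 1.57e-06, edgeR). SIRT3, SIRT5, SIRT6 and SIRT7 had slopes between -0.034 and 0.028 and did not pass the threshold.

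Summed over genes per kilobase of canonical transcript, the acetylation writers stood at 103, 97.5 and 102 CPM per kb in replicates 1, 2 and 3 at 0 h and at 63.0, 59.1 and 56.7 at 4 h. The HDAC family stood at 201, 201 and 212 CPM per kb at 0 h and at 266, 259 and 276 at 4 h. The ratio of the HDAC sum to the writer sum, which no scaling of libraries can change, was 1.96, 2.06 and 2.08 at 0 h, 2.20, 2.00 and 2.30 at 1 h, 2.89, 2.75 and 3.13 at 2 h and 4.23, 4.38 and 4.87 at 4 h. The 2 h and 4 h libraries did not overlap the earlier ones.

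**Figure D2:**
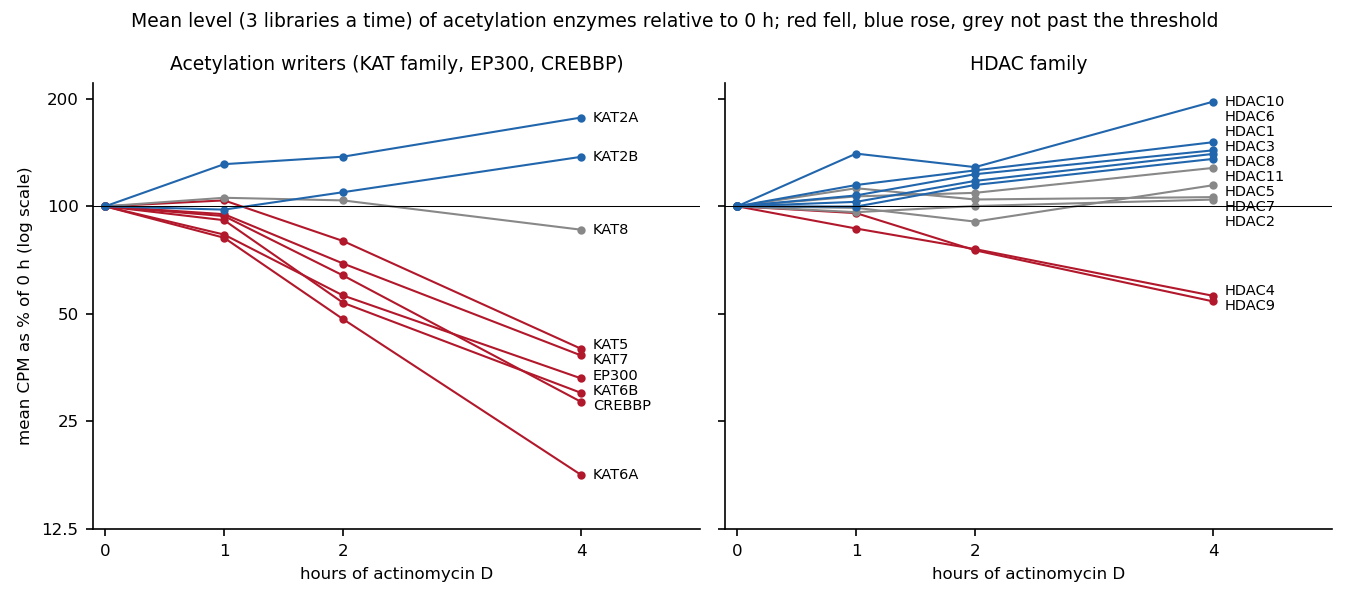
Mean CPM of 3 libraries as a percentage of the mean at 0 h (vertical axis, log scale) against hours of actinomycin D, for the acetylation writers and for the HDAC family. Of the 9 writers, 6 fell (red), KAT6A lowest with 12.9% to 21.0% of the 0 h value in its 3 replicates, whereas in the HDAC family HDAC4 and HDAC9 alone end below the 0 h line.

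For H3K4 methylation, both sides held falling genes. Of the 7 tested writers, KMT2A, KMT2C, SETD1A and SETD1B fell, SETD7 rose, and KMT2B and KMT2D did not pass. SETD1A and SETD1B, the catalytic subunits of the main H3K4 trimethylation complexes, had slopes of -0.27 ± 0.032 (SE, adjusted p = 1.42e-06, edgeR) and of -0.25 ± 0.052 (SE, adjusted p = 0.000482, edgeR). SETD1A gave 57.8, 52.8 and 56.7 CPM at 0 h, 55.5, 58.2 and 60.4 at 1 h, 38.7, 36.5 and 35.2 at 2 h and 27.7, 27.1 and 30.3 at 4 h, and SETD1B gave 40.7, 37.4 and 34.1 CPM at 0 h, 35.3, 34.5 and 28.2 at 1 h, 17.3, 19.4 and 15.9 at 2 h and 20.2, 21.7 and 18.1 at 4 h. For SETD1A the 1 h libraries lay within or above the 0 h range and the fall came after 1 h. For SETD1B the 2 h libraries held the lowest value and overlapped those of 4 h.

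KMT2A, the MLL1 gene, had a slope of -0.22 ± 0.039 (SE, adjusted p = 0.000150, edgeR), and 22.0% of its transcript lies also in another coding gene model on the same strand. KMT2C, an enhancer H3K4 monomethyltransferase, had a slope of -0.11 ± 0.035 (SE, adjusted p = 0.0129, edgeR). Replicate 1 at 0 h was the highest library for KMT2A, KMT2C and KMT2D, for KMT2D at 241 CPM against 132 and 156. Without replicate 1, and likewise without the 0 h libraries, the KMT2C call was lost. KMT2B and KMT2D had slopes of 0.016 and -0.039, and SETD7, an H3K4 monomethyltransferase, had a slope of 0.056 ± 0.015 (SE, adjusted p = 0.00397, edgeR), a call that was lost under library totals and without replicate 2.

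KMT2E carries the family's SET domain but is not known as an active methyltransferase. It gave 96.4, 98.9 and 111 CPM at 0 h, 77.2, 79.3 and 83.9 at 1 h, 36.02, 43.0 and 42.4 at 2 h and 30.9, 24.9 and 23.6 at 4 h. The largest step was between 1 and 2 h in each replicate, and KMT2E, on chromosome 7 of GRCh38 from 104940943 to 105115019 on the plus strand, had a slope of -0.52 ± 0.039 (SE, adjusted p = 1.46e-08, edgeR) and a half-life of 1.94 h (1.80 to 2.10 h within 1 SE of the slope).

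Of the 5 tested H3K4 erasers, KDM5A and KDM5B fell, KDM1B rose, and KDM1A and KDM5C did not pass. KDM5B gave 54.1, 47.8 and 56.6 CPM at 0 h, 45.8, 42.6 and 44.2 at 1 h, 31.0, 28.4 and 30.6 at 2 h and 15.6, 16.5 and 10.4 at 4 h. Each time lay below the one before, with a slope of -0.48 ± 0.034 (SE, adjusted p = 8.55e-09, edgeR) and a half-life of 2.08 h (1.94 to 2.24 h within 1 SE of the slope). KDM5A had a slope of -0.22 ± 0.022 (SE, adjusted p = 2.78e-07, edgeR), while KDM5C had a slope of 0.016. KDM1A, the LSD1 demethylase of the CoREST complex, gave 296, 325 and 301 CPM at 0 h, 303, 320.0 and 319.8 at 1 h, 322, 337 and 326 at 2 h and 311, 320.2 and 300.1 at 4 h. Its 0 h and 4 h libraries overlapped, while all 2 h libraries lay above those of 1 h and of 4 h. KDM1A had a slope of 0.0037 ± 0.014 (SE, adjusted p = 0.830, edgeR). It fell under library totals (slope -0.036, adjusted p = 0.0366, edgeR) and when GAPDH and ACTB set the scale (slope -0.13, adjusted p = 2.29e-05, edgeR). KDM1B had a slope of 0.11 ± 0.032 (SE, adjusted p = 0.00792, edgeR), a call that was lost under library totals.

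**Figure D3:**
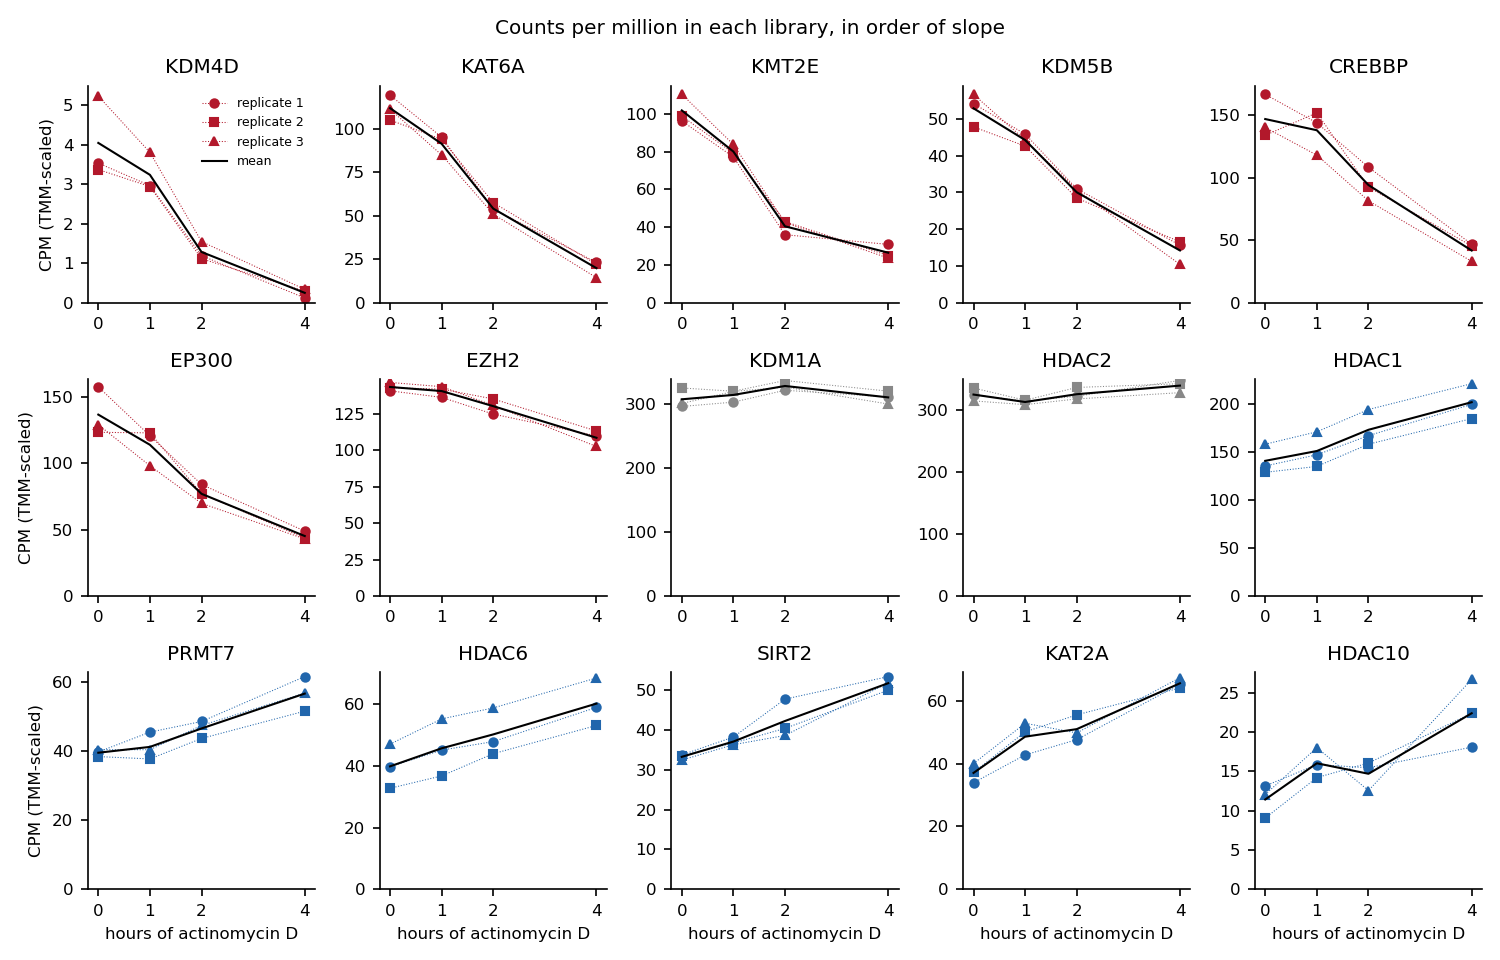
CPM (TMM-scaled, vertical axes from 0) against hours of actinomycin D in each of the 12 libraries for 15 members, ordered by slope. Symbols mark the 3 replicates and black lines the means; red members fell, grey did not pass and blue rose, and KDM4D ends at 0.248 CPM on average from 4.05 at 0 h.

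For H3K9 methylation, the paired writers moved apart and most erasers fell. EHMT1, the GLP enzyme, had a slope of -0.11 ± 0.020 (SE, adjusted p = 0.000229, edgeR), and EHMT2, its G9a partner, had a slope of 0.059 ± 0.019 (SE, adjusted p = 0.0138, edgeR), a small rise that was lost without replicate 1, without replicate 2, without the 0 h libraries and under library totals. EHMT2 shares 14.9% of its transcript with an antisense gene. Of the 7 erasers, KDM3A, KDM4A, KDM4B, KDM4D and KDM7A fell, KDM3B rose and KDM4C did not pass. KDM4D was the steepest of all members, at the 0.598th percentile of slopes among the tested genes, and was also one of the lowest in level. It was counted at 36, 35 and 59 reads at 0 h, 31, 30 and 42 at 1 h, 12, 11 and 16 at 2 h and 1, 3 and 3 at 4 h. These counts correspond to 3.54, 3.37 and 5.23 CPM at 0 h, 2.97, 2.94 and 3.81 at 1 h, 1.19, 1.11 and 1.55 at 2 h and 0.118, 0.290 and 0.336 at 4 h. KDM4D, on chromosome 11 of GRCh38 from 94973709 to 94999519 on the plus strand, had a slope of -0.92 ± 0.10 (SE, adjusted p = 4.50e-07, edgeR) and a half-life of 1.09 h (0.987 to 1.22 h within 1 SE of the slope), with a precision at 4 h that the few counts limit.

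KDM3A had a slope of -0.18 ± 0.034 (SE, adjusted p = 0.000247, edgeR), KDM3B had a slope of 0.051 ± 0.014 (SE, adjusted p = 0.00428, edgeR) and KDM4A had a slope of -0.083 ± 0.014 (SE, adjusted p = 7.32e-05, edgeR). KDM4A shares 46.5% of its transcript with a readthrough model. KDM4B, KDM7A and KDM4C had slopes of -0.077, -0.10 and -0.088. The KDM4B and KDM7A calls were lost without replicate 1, that of KDM7A also without the 0 h libraries, and the KDM3B call was lost under library totals and without the 0 h libraries.

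For H3K27, both demethylases fell and the 2 methyltransferases, alternative catalytic subunits of PRC2, differed. EZH2 gave 141, 143 and 147 CPM at 0 h, 137, 142 and 144 at 1 h, 125, 135 and 131 at 2 h and 110.1, 113 and 103 at 4 h. The fall was shallow, with all 4 h libraries below all others. EZH2 had a slope of -0.10 ± 0.014 (SE, adjusted p = 9.27e-06, edgeR) and a half-life of 9.56 h (8.40 to 11.1 h within 1 SE of the slope). Its slope was -0.14 under library totals and -0.24 when scaled to GAPDH and ACTB, both steeper than that range allows. EZH1 had a slope of 0.10 ± 0.046 (SE, adjusted p = 0.0578, edgeR) and rose with the replicate block (adjusted p = 0.0238, edgeR). KDM6A, the UTX demethylase, had a slope of -0.34 ± 0.031 (SE, adjusted p = 9.37e-08, edgeR), and KDM6B had a slope of -0.13 ± 0.046 (SE, adjusted p = 0.0236, edgeR), a call that was lost without replicate 1 and without the 0 h libraries.

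For H3K36, the trimethylase SETD2 had a slope of -0.31 ± 0.026 (SE, adjusted p = 3.42e-08, edgeR). KDM2A and KDM2B, listed here by residue and not as erasers of the trimethyl mark, had slopes of -0.39 ± 0.030 (SE, adjusted p = 1.88e-08, edgeR) and of -0.19 ± 0.019 (SE, adjusted p = 3.57e-07, edgeR). DOT1L, the H3K79 methyltransferase, had a slope of 0.024 ± 0.031 (SE, adjusted p = 0.518, edgeR). SETD8, an older name of KMT5A, the H4K20 monomethylase, had a slope of -0.058 ± 0.017 (SE, adjusted p = 0.00622, edgeR), a call that was lost without the 0 h libraries. Of the SETD genes that have other or less settled substrates, SETD5 had a slope of -0.15 ± 0.019 (SE, adjusted p = 6.34e-06, edgeR). SETD3, SETD4, SETD6 and SETD9 had slopes of 0.015, 0.032, -0.076 and 0.068 and did not pass. SETD6 fell with the replicate block (adjusted p = 0.0269, edgeR) and under library totals. Its transcript shares 21.6% with CNOT1 on the opposite strand and 14.0% with a non-coding gene on the same strand.

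The arginine methyltransferases included the highest levels and mostly flat or positive slopes, 2 of 7 falling and 3 rising under TMM scaling and 4 falling and 0 rising when scaled to GAPDH and ACTB. Per kilobase, PRMT1, which makes most asymmetric dimethylarginine, stood at 277 CPM per kb at 0 h, the highest of the 69 members, and PRMT5, the main symmetric enzyme, at 121. PRMT1 had a slope of 0.12 ± 0.011 (SE, adjusted p = 6.12e-08, edgeR). PRMT7, a monomethylating enzyme, gave 39.8, 38.4 and 40.5 CPM at 0 h, 45.5, 37.8 and 40.4 at 1 h, 48.6, 43.7 and 47.5 at 2 h and 61.7, 51.6 and 56.9 at 4 h. Its 4 h libraries lay above all others, with a slope of 0.13 ± 0.020 (SE, adjusted p = 2.16e-05, edgeR). PRMT2 had a slope of 0.086 ± 0.015 (SE, adjusted p = 0.000113, edgeR), and PRMT5 had a slope of 0.0095 ± 0.016 (SE, adjusted p = 0.616, edgeR). PRMT9 and PRMT6 fell, with slopes of -0.28 ± 0.032 (SE, adjusted p = 1.06e-06, edgeR) and of -0.14 ± 0.020 (SE, adjusted p = 1.20e-05, edgeR), and PRMT3, with a slope of 0.048, rose with the replicate block (adjusted p = 0.0229, edgeR) and in limma on log2 CPM.

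As classes, writers and erasers lay close together in median slope, and the order of the classes depended on the chemistry. Of 36 writers 18 fell, 7 rose and 11 did not pass, and of 33 erasers 14 fell, 8 rose and 11 did not pass. The median slope was -0.068 for writers and -0.028 for erasers, a difference of 0.040, which was 0.049, 0.016 and 0.078 in replicates 1, 2 and 3 fitted alone (SD 0.031). The difference was positive in each replicate. Among acetylation enzymes it was 0.39, among lysine methylation enzymes -0.046, and without the HDAC, SIRT and KAT families -0.054. Within lysine methylation, 11 of 16 KDM genes fell and 2 rose (median -0.11), and 10 of 20 writers fell and 2 rose (median -0.067). Summed per kilobase, the KDM family went from 274 ± 5.36 to 232 ± 9.77 CPM per kb between 0 and 4 h (mean ± SD, n = 3), the lysine methylation writers from 287 ± 9.72 to 247 ± 0.637, and the PRMT family from 485 ± 9.97 to 603 ± 4.81.

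Levels at 0 h spanned from 1.04 CPM per kb for KDM7A to 277 for PRMT1. After PRMT1 and PRMT5 came KDM1A at 99.7, HDAC1 at 66.4 and EZH2 at 54.1 CPM per kb. At the low end, HDAC11, KDM4D and HDAC9 stood at 1.05, 1.37 and 1.44 CPM per kb.

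Most members that fell lost less in the first hour than in the second. Only KAT2A passed the threshold at 1 h against 0 h, as higher (adjusted p = 0.0369, edgeR, background 0.349%), and 0 members were lower (edgeR, background 2.24%). The KAT2A call was lost when any 1 replicate was left out (adjusted p from 0.110 to 0.413, edgeR) and when GAPDH and ACTB set the scale (adjusted p = 0.270, edgeR). At an unadjusted p below 0.05 (edgeR), 7 were lower (EP300, KAT6A, KDM2A, KDM5B, KMT2C, KMT2E and SIRT1) and 3 higher. The share of all tested genes at this threshold was not taken, so these are names and not calls. DESeq2 called 1 lower (KMT2E). With the replicate block 11 were lower and 5 higher (backgrounds of 10.5% and 6.18%). The lower ones included KMT2C (adjusted p = 1.91e-05), KMT2E (0.000113), EP300 (0.000703) and KAT6A (0.000801, edgeR). The median change of the 32 falling members was -0.13 log2 per hour from 0 to 1 h, -0.35 from 1 to 2 h and -0.24 from 2 to 4 h, compared with -0.14, -0.29 and -0.21 for all 3859 falling genes. In 26 of the 32, the loss per hour was larger from 1 to 2 h than from 0 to 1 h. That share was not taken over all falling genes, whose medians had the same order, so it is no trait of the members.

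A departure from a straight line in time was called for 6 members, SETD1B (adjusted p = 0.00750), SETD1A (0.0138), SIRT1 (0.0263), KDM6A (0.0319), KMT2E (0.0339) and KAT5 (0.0425, edgeR, background 2.70%). With the replicate block there were 22 (background 17.2%), among them KDM2A (adjusted p = 1.85e-06), CREBBP (2.10e-05) and KAT6A (0.000337, edgeR). With any 1 replicate left out there were 0 or 1. SETD1B changed by -0.19 log2 per hour from 0 to 1 h, -0.90 from 1 to 2 h and 0.096 from 2 to 4 h, and SETD1A by 0.058, -0.66 and -0.19. A half-life from 1 slope is, for the members called in either fit, an average over unequal rates.

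Ratios between close paralogs, taken within each library, are free of the scaling. For 14 pairs, the slope of the log2 ratio of counts over the 12 libraries was tested by permuting the time labels (100000 resamples, two-sided, adjusted over the 14 pairs), and 9 pairs passed at an adjusted p below 0.05. Permuting within replicates, in all 13824 arrangements, passed 9 as well. The pairs were picked with the slopes known, and both permutations use the same counts as the slopes. They therefore describe these pairs and are no separate support for the slopes. The share passing among other gene pairs was not taken.

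KDM3A over KDM3B, both H3K9 demethylases, went from ratios between 0.608 and 0.776 at 0 h to ratios between 0.297 and 0.425 at 4 h, a slope of the log2 ratio of -0.23 per hour (standard error 0.042, permutation p = 0.000180, adjusted p = 0.000840). EHMT1 over EHMT2 went from ratios between 0.820 and 0.983 at 0 h to ratios between 0.548 and 0.612 at 4 h, a slope of the log2 ratio of -0.16 per hour (standard error 0.026, permutation p = 0.000160, adjusted p = 0.000840). In both pairs the 0 h and 4 h libraries did not overlap. KDM6A over KDM6B went from ratios between 2.36 and 2.89 at 0 h to ratios between 1.40 and 1.46 at 4 h, a slope of the log2 ratio of -0.22 per hour (standard error 0.024, permutation p = 8.00e-05, adjusted p = 0.000840).

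EZH1 over EZH2 went in the opposite direction, from ratios between 0.0924 and 0.0949 at 0 h to ratios between 0.132 and 0.206 at 4 h, a slope of the log2 ratio of 0.21 per hour (standard error 0.054, permutation p = 0.00393, adjusted p = 0.00786). EZH1 remained the minor partner at every time. HDAC1 over HDAC2 rose from ratios between 0.383 and 0.501 at 0 h to ratios between 0.539 and 0.673 at 4 h, a slope of the log2 ratio of 0.11 per hour (standard error 0.033, permutation p = 0.00731, adjusted p = 0.0128). Of the other pairs that passed, KMT2A over KMT2B, KDM2A over KDM2B, KAT6A over KAT6B and KDM1A over KDM1B had slopes of -0.22, -0.20, -0.20 and -0.11 (permutation adjusted p from 0.00147 to 0.0257).

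EP300 over CREBBP, SETD1A over SETD1B, KAT2A over KAT2B, KMT2C over KMT2D and HDAC6 over HDAC10 did not pass. The slope of EP300 over CREBBP was 0.070 (standard error 0.035, permutation adjusted p = 0.0868), and that of SETD1A over SETD1B was -0.027 (standard error 0.057, permutation adjusted p = 0.647).

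**Figure D4:**
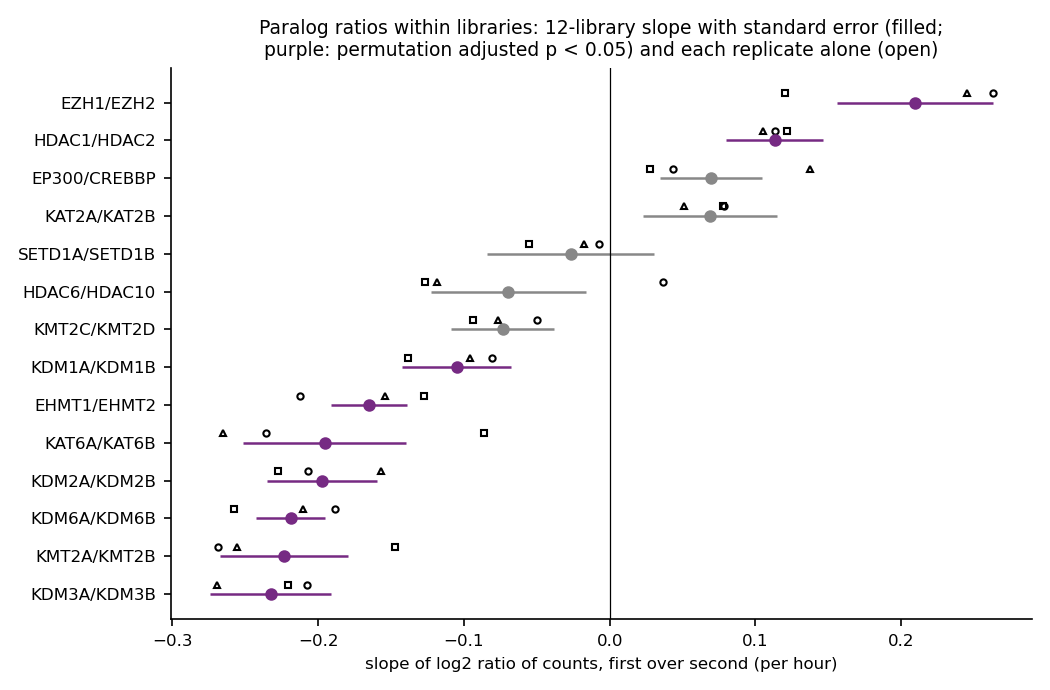
Slope per hour of the log2 ratio of counts of 14 paralog pairs, first gene over second, with its standard error over 12 libraries (filled points) and in each replicate alone (open symbols). Purple pairs passed the permutation test at an adjusted p below 0.05 (9 of 14), from KDM3A/KDM3B at -0.23 to EZH1/EZH2 at 0.21.

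Features of the canonical transcripts, which the choice of members did not use, went along with the slopes. Across the 69 members, Spearman's rho between slope and exons per kilobase was 0.57, and between slope and transcript length -0.54, compared with 0.46 and -0.25 across 11391 tested coding genes. The members share the same 12 libraries and are not independent replicates, so these are descriptions. Members that fell had a median length of 7159 bases and 3.04 exons per kb, and members that rose 3115 bases and 6.27 exons per kb. The acetylation writers had a median length of 8314 bases and the HDAC family 4118.

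KDM4D has 3 exons in 2951 bases and PRMT6 1 exon in 2621 bases, so that both were short and yet fell. KAT5, with 6.25 exons per kb, also fell, and KMT2D, the longest at 20635 bases, did not pass. The pentamer ATTTA was present in the 3′ UTR of 31 of 32 falling members (96.9%), 9 of 15 rising members (60.0%) and 11 of 22 that did not pass. The share was 51 of 69 members in all (73.9%), beside 74.9% of the tested coding genes with a 3′ UTR. Shares by call were not taken over all tested genes, so the split cannot be read as a trait of the members. The 3′ UTR length also differed, with a median of 1668 bases in falling members, 587 in rising members and 1025 in those that did not pass. Per kilobase of 3′ UTR the median was 2.28 copies in falling members, 2.75 in rising members and 0.308 in those that did not pass. Spearman's rho between slope and copies per kilobase was -0.15 across the members and -0.23 across 11383 tested coding genes.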

How the data were processed

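RNA was sequenced from 12 poly(A)-selected, strand-specific libraries of shA673-1c cells, 3 at each of 4 times after 5 µM actinomycin D. The authors deposited raw counts, whole numbers of reads per gene symbol. The submitters' processing notes name FastQC, STAR and hg19, without versions or roles, and the study's methods describe another pipeline for this kit in general, so the counting of overlapping, antisense or paralogous reads is not given in the sources used here. Samples were grouped by the labelled time point, and each of the 12 columns was matched to its sample by title. Rows that name no gene numbered 0, as did spike-in rows.

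Members, pathway lists and tests were chosen with earlier results of these data known. The 12032 genes that averaged 10 or more counts were tested with edgeR 4.0.16 in R 4.3.3 (TMM, glmQLFit, glmQLFTest), with time in hours as a number, or as 4 groups for single times and for the departure from a line, and Benjamini-Hochberg adjustment over all tested genes. Standard errors (SE) follow from the slope and its F value. The scripts were tested on simulated data. The common biological coefficient of variation was 0.0905. Replicates of a time differed by more than sampling noise (chi-square per degree of freedom of 3.23 to 8.73 over 12 pairs), so none was counted as a repeat deposit. Deviations from the time means correlated in all 18 pairs of libraries with a shared replicate number (r from 0.46 to 0.78, mean 0.60, 8856 genes with averages of 100 or more counts), against a mean of -0.29 over 36 other pairs, so the numbers pair the samples. The main tests did not use this pairing. Blocked values are given where the slope call of a member changed. For the 1 h contrast and the departure, blocked counts are given with some of the names. P-values cover the spread between these cultures of 1 line.

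Named were the 5 steepest and 5 highest slopes past the threshold, KDM1A, EZH2, HDAC1, HDAC2, EP300 and CREBBP, the 3 smallest p for departure, the ends of each family, the opposing enzymes of each mark, and the remaining members by slope. Paralog pairs, HDAC classes and the sums per kilobase were added after the values were seen. Transcript features are those of Ensembl canonical transcripts in GENCODE version 44 (GRCh38), which may differ from the models the authors counted. Alternatives were library totals, DESeq2 1.42.0 size factors and Wald test, scaling to GAPDH plus ACTB, other count filters (none, or a mean of 50), the replicate block, leaving out each replicate, the 0 h or the 4 h libraries, and limma 3.58.1 on log2 CPM with pseudocounts of 1 and 0.1. An item of the outside lists is not reported here.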

Additional observations from a re-analysis of the deposited data

How the results depend on the processing

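The scaling to GAPDH and ACTB, which shifted the median slope of all tested genes by -0.14, gave the largest change in the slope and 4 h counts. There 54 members fell and 0 rose, 53 were lower and 0 higher at 4 h, 5 lower and 0 higher at 1 h, and 3 departed from a line. Slopes turned negative there for DOT1L (-0.11), EHMT2 (-0.079), EZH1 (-0.035), HDAC1 (-0.0050), HDAC11 (-0.050), HDAC2 (-0.12), HDAC3 (-0.0095), HDAC5 (-0.092), HDAC7 (-0.13), HDAC8 (-0.019), KAT2B (-0.015), KDM1A (-0.13), KDM1B (-0.033), KDM3B (-0.087), KDM5C (-0.12), KMT2B (-0.12), PRMT1 (-0.013), PRMT2 (-0.052), PRMT3 (-0.090), PRMT5 (-0.13), PRMT7 (-0.0039), SETD3 (-0.12), SETD4 (-0.11), SETD7 (-0.082), SETD9 (-0.068), SIRT3 (-0.11) and SIRT6 (-0.13). Under library totals 11 slopes turned negative, of which KDM1A (-0.036) passed the threshold and DOT1L, HDAC2, HDAC7, KDM5C, KMT2B, PRMT5, SETD3, SETD4, SIRT3 and SIRT6 (-0.031 to -0.0069) did not, 37 members fell and 10 rose, and 10 were higher at 4 h. Without the 4 h libraries 20 fell and 7 rose. There 20 slope calls were lost, in a course with fewer libraries and a shorter span. At 1 h, no count filter gave 2 lower (KMT2C and KMT2E) and DESeq2 1, and the replicate block gave 11 lower and 5 higher. Departures numbered 22 with the replicate block, which moved no other count by over 1.5 times beyond those given here and changed only the slope calls of EZH1, KAT8, PRMT3 and SETD6. Leaving out 1 replicate, between 29 and 32 members fell, 13 and 15 rose, 29 and 30 were lower and 11 and 15 higher at 4 h, 0 were lower and 0 higher at 1 h (the KAT2A call was lost each time), and 0 to 1 departed, with the difference in median slope, erasers minus writers, from 0.042 to 0.059. That difference was 0.39 for acetylation enzymes, -0.046 for lysine methylation enzymes and -0.054 without the HDAC, SIRT and KAT families, the first 2 splits being chosen after seeing the data. DESeq2 size factors and other count filters changed no slope call of a tested member, and the DESeq2 test added EZH1. Depth limits KDM4D at 4 h (1 to 3 counts) and leaves SIRT4 untested.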

Other observations

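The partners of these enzymes, in 10 lists of genes outside the naming patterns, are given here as counts beside all tested genes (32.1% falling, 30.7% rising, edgeR). Of 157 tested genes, 97 fell and 28 rose (61.8% and 17.8%), with a median slope of -0.088. Subunits of the KAT complexes fell in 32 of 48 and rose in 6, from BRPF1, the scaffold of the MOZ and MORF complexes, at -0.66 (adjusted p = 3.74e-08, edgeR) to ING4 at 0.12. Subunits of the HDAC complexes fell in 25 of 38 and rose in 10, from ING1, a Sin3 subunit, at -0.77 (adjusted p = 1.36e-07, edgeR) to the NuRD remodeller CHD3 at 0.17.

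Genes listed as demethylases outside the naming patterns, KDM8 among them, fell in 7 of 9 and rose in 0. The 7 include JARID2, at -0.37, which is not known as an active demethylase. The falls ran from RIOX1 at -0.85 to PHF8 at -0.049. Lysine methyltransferases outside the patterns fell in 8 of 13 and rose in 3, from the H3K9 enzyme SUV39H1 at -0.32 to SMYD2 at 0.072. Other acetyltransferases fell in 7 of 10 and rose in 1, from CDYL at -0.36 to HAT1, which acetylates new histone H4, at 0.053. Arginine methylation genes fell in 1 of 6 and rose in 3, from RIOK1 at -0.14 to CARM1 at 0.12.

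PRC2 subunits fell in 6 of 10 and rose in 3, from AEBP2 at -0.37 to PHF19 at 0.13. COMPASS and KMT2 complex subunits fell in 5 of 14 and rose in 1 (BOD1, at 0.042), with NCOA6 the steepest fall at -0.20, and with the replicate block 6 fell and 3 rose, PSIP1 (adjusted p = 0.000493, edgeR) and DPY30 (adjusted p = 0.0131, edgeR) being added to those that rose. The acetyl-lysine readers BRD2 and BRD3 fell, at -0.35 and -0.11. DNA methylation enzymes fell in 4 of 7 and rose in 1, from TET2 at -0.33 to the maintenance enzyme DNMT1 at 0.088. Under the scaling to GAPDH and ACTB, 141 of the 157 fell and 0 rose, and under library totals 111 fell and 12 rose.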
